A study of Homo sapiens with 24 samples.

Results

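The genes described here encode heterogeneous nuclear ribonucleoproteins (hnRNPs) or a close partner: HNRNPA1, HNRNPA2B1, HNRNPC, HNRNPD, HNRNPDL, HNRNPH1, HNRNPH2, HNRNPK, HNRNPU and MATR3. They were taken by name, with every transcript that the GENCODE 29 annotation assigns to them, and are 10 of the 35578 genes in the deposited transcript tables. Together they hold 210 of the 169797 annotated transcripts. GENCODE 29 classes 124 of the 210 as coding, 23 as targets of nonsense-mediated decay (NMD), 51 as retaining an intron and 12 as other. NMD transcripts were listed for 8 of the genes and retained-intron transcripts for 8. HNRNPH2 has 1 transcript in all, MATR3 has no NMD transcript and HNRNPDL has no transcript of the retained-intron class.

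hnRNP proteins coat nuclear RNA as it is made and take part in splicing, export, stability and translation. Many of their genes contain exons or introns whose inclusion leaves an exon junction after the stop codon, and such transcripts are degraded by NMD once they are translated. Transcripts that keep an intron are often held in the nucleus. Several hnRNP proteins are known to act on the splicing of their own RNA through such switches, so levels and isoforms are both given below.

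The cells were A549, a line derived from a human lung adenocarcinoma and labelled as wild type and lung epithelial, and 24 libraries of their polyadenylated RNA come from 2 separate experiments. Whole cells received a pool of siRNAs against the kinase gene TAOK2 (30 nM), a control siRNA pool (30 nM), compound 2 or its vehicle DMSO, with 3 libraries per group, one from each of batches A, B and C. In the fractionation experiment, cells with TAOK2 siRNA or control siRNA, both at 30 nM, gave nuclear, cytoplasmic and total RNA, with 2 libraries per group from batches 1 and 2. The labels call compound 2 an inhibitor of the TAOK2 kinase and give neither its structure nor its dose or duration. The labels do not say whether batches are separate cultures, so p-values measure the spread between these libraries. The titles of the whole-cell libraries also carry the word mock, which the labels do not explain. Values are in TPM, transcript abundances scaled to length so that each library has the same total, and hold no read number; the labels state at least 100000000 reads per library.

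TAOK2 had 10.6, 12.5 and 8.56 TPM with TAOK2 siRNA, against 40.3, 38.2 and 34.3 TPM with control siRNA in whole cells. With compound 2 it had 21.5, 30.7 and 20.5 TPM, against 39.7, 40.6 and 37.5 TPM with DMSO. In total RNA of the fractionation experiment TAOK2 had 3.67 and 2.99 TPM with TAOK2 siRNA, against 9.70 and 5.01 TPM with control siRNA. In cytoplasmic RNA it had 2.41 and 0.728 TPM, against 7.63 and 3.37 TPM. In nuclear RNA the groups overlapped (9.68 and 6.24 TPM, against 15.6 and 9.31 TPM). Within each batch TAOK2 was lower with TAOK2 siRNA in total, nuclear and cytoplasmic RNA. TAOK2 passed in limma in whole cells (adjusted p = 2.32e-05 for knockdown and 0.00136 for compound 2) and in none of the 3 fractionation comparisons. All 9 markers of A549 epithelium reached a mean of 1 TPM in each whole-cell group and 8 of them in each fractionation group, with sums of 6885 to 14310 TPM per library, beside 14.9 to 73.2 TPM for 5 leukocyte markers, 2.18 to 31.4 TPM for 5 fibroblast markers and 0.582 to 6.13 TPM for 4 endothelial markers. The 13 mitochondrially encoded mRNAs, fixed as a cytoplasmic marker, were higher in nuclear RNA (365200 to 424900 TPM) than in cytoplasmic RNA (81010 to 139100 TPM), which goes against the fraction labels. Transcripts of the retained-intron class over all genes followed the labels, with 73460 to 97470 TPM in nuclear and 35320 to 39230 TPM in cytoplasmic RNA.

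The 10 genes together made up 0.609% to 0.618% of TPM with TAOK2 siRNA, 0.661% to 0.672% with control siRNA, 0.659% to 0.70% with compound 2 and 0.675% to 0.725% with DMSO. In cells with control siRNA, HNRNPA1 had the highest level at 1924 ± 16.8 TPM (SD, n = 3), followed by HNRNPA2B1 at 1217 ± 37.2 TPM. HNRNPK (810 ± 17.1 TPM) and HNRNPC (799 ± 24.9 TPM) overlapped between libraries. HNRNPU came next at 530 ± 19.3 TPM, then HNRNPH1 at 454 ± 17.6 TPM. HNRNPDL (323 ± 13.1 TPM) and HNRNPD (322 ± 7.36 TPM) overlapped, and MATR3 (211 ± 7.05 TPM) and HNRNPH2 (71.2 ± 3.34 TPM) were lowest. With DMSO the order was the same except that HNRNPD and HNRNPDL, which overlapped again, changed places. TPM is scaled to transcript length, so these levels can be compared between genes. Processed pseudogenes named after a member can share reads with it. The 74 copies named after HNRNPA1 held 0.834% to 5.77% of the TPM of gene and copies together, and those of the other genes at most 0.926%. The readthrough gene RPL36A-HNRNPH2 had 0.424 to 3.02 TPM.

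**Figure D1:**
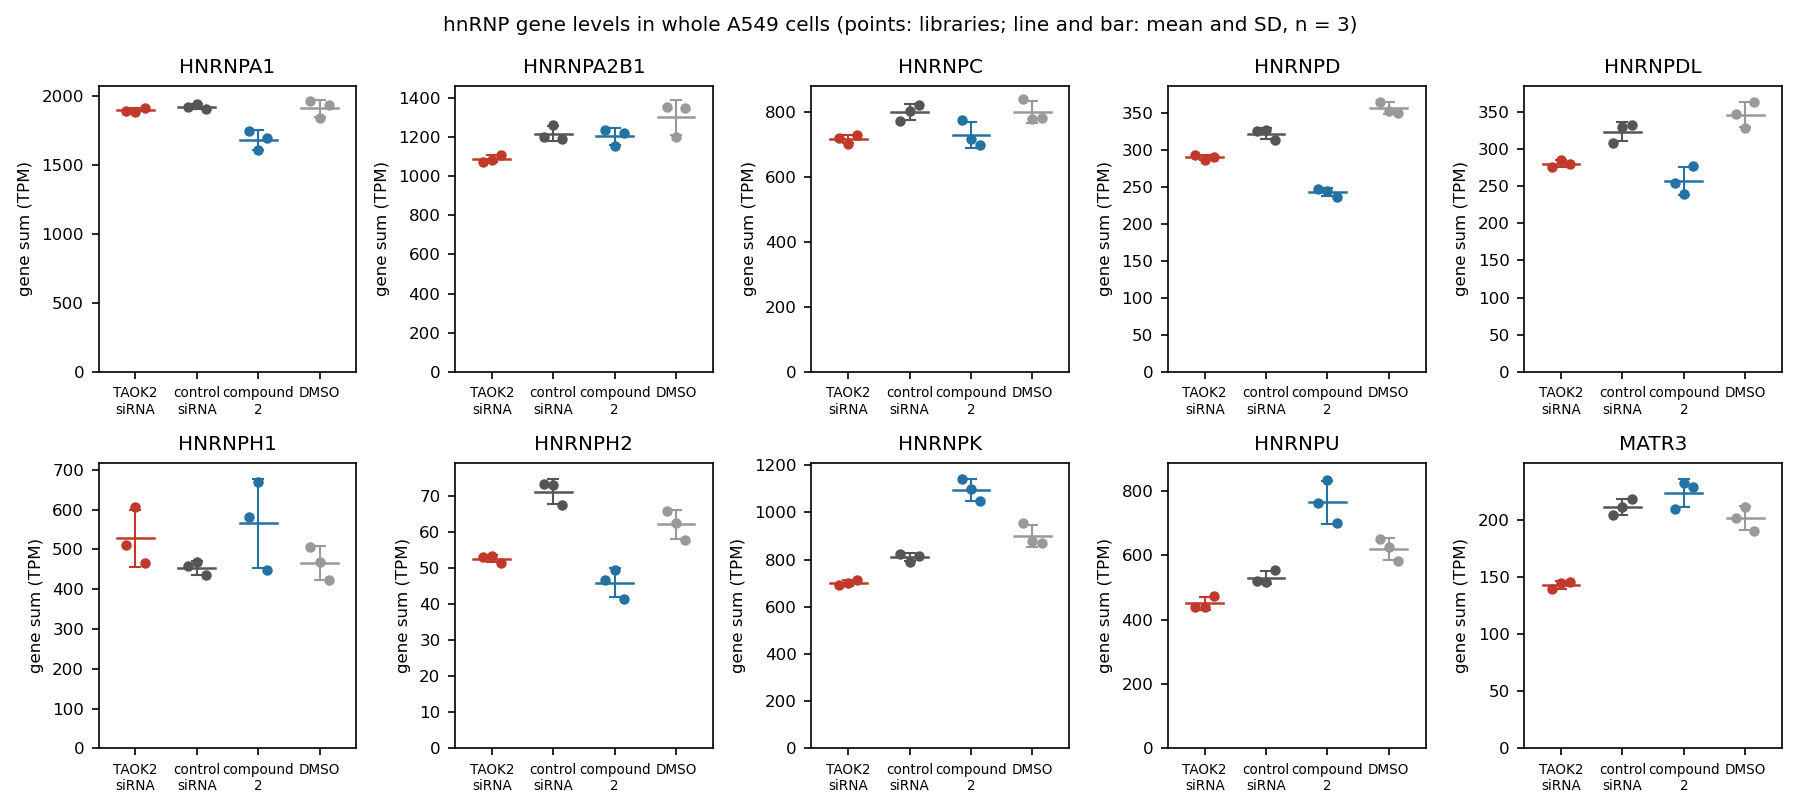
Gene sums in TPM (y axis) of the 10 genes in the 4 whole-cell groups (x axis), each point 1 library, lines and bars the mean and SD of 3 libraries. MATR3 sits at 139 to 145 TPM with TAOK2 siRNA and at 204 to 218 TPM with control siRNA, while HNRNPK and HNRNPU are highest with compound 2.

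Knockdown of TAOK2 in whole cells was followed by lower levels of 6 hnRNP genes and by higher levels of none. Most affected was MATR3, a nuclear matrix protein that binds RNA, followed by HNRNPH2, which binds runs of G. HNRNPU, HNRNPK, HNRNPDL and HNRNPD fell by smaller amounts. Of all 13105 genes tested, 22.2% passed the same threshold (limma, two-sided, Benjamini-Hochberg adjusted p under 0.05), 14.4% lower and 7.78% higher. The median over the 10 genes was -0.18 on the log2(TPM + 1) scale, beside -0.05 over all genes tested. In bulk RNA, fewer cells with a transcript and less of it per cell cannot be told apart.

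MATR3 (chr5:139273752-139331677, GRCh38, plus strand) had 139, 145 and 145 TPM with TAOK2 siRNA, against 204, 211 and 218 TPM with control siRNA. The groups lay far apart, and every library with TAOK2 siRNA was below every control library. The log2 difference was -0.56 ± 0.06 (moderated SE, adjusted p = 7.48e-05). It was carried by the main coding transcripts: MATR3-215 had 38.8, 39.7 and 42.0 TPM with TAOK2 siRNA, against 66.6, 63.4 and 62.6 TPM with control siRNA. MATR3-229 had 26.6, 24.4 and 23.7 TPM with TAOK2 siRNA, against 34.1, 37.0 and 36.4 TPM with control siRNA. The share of MATR3 in retained-intron transcripts was 5.07%, 6.09% and 4.81% with TAOK2 siRNA, against 4.31%, 3.97% and 3.33% with control siRNA. These shares did not overlap, but the difference missed the threshold (log2 odds difference 0.49 ± 0.18, limma adjusted p = 0.329).

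HNRNPH2 (chrX:101408295-101414133, plus strand) had 53.1, 53.2 and 51.4 TPM with TAOK2 siRNA, against 73.2, 73.1 and 67.4 TPM with control siRNA. Again no library overlapped, and the log2 difference was -0.43 ± 0.08 (limma adjusted p = 0.00213). Its paralog HNRNPH1, which binds the same kind of G runs, had 510.5, 606 and 467 TPM with TAOK2 siRNA, against 459, 468.5 and 434 TPM with control siRNA. The HNRNPH1 groups overlapped and their difference of 0.21 ± 0.13 did not pass (limma adjusted p = 0.293).

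HNRNPU, a scaffold protein that ties RNA to chromatin, had 438, 439 and 474 TPM with TAOK2 siRNA, against 520.2, 518 and 552.5 TPM with control siRNA (log2 difference -0.24 ± 0.07, limma adjusted p = 0.0285). HNRNPK, which binds C-rich RNA, had 691, 699 and 712.5 TPM with TAOK2 siRNA, against 824.5, 791 and 813 TPM with control siRNA (-0.21 ± 0.05, adjusted p = 0.0125). In both genes all knockdown libraries were below all control libraries. HNRNPDL and HNRNPD, paralogs that bind AU-rich elements, both fell. HNRNPDL had 275, 285 and 279.9 TPM with TAOK2 siRNA, against 308, 329 and 332 TPM with control siRNA (-0.20 ± 0.06, adjusted p = 0.0336). HNRNPD had 293, 286 and 290.3 TPM with TAOK2 siRNA, against 326, 327 and 314 TPM with control siRNA (-0.15 ± 0.05, adjusted p = 0.0290).

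HNRNPA1, HNRNPA2B1 and HNRNPC, proteins of the hnRNP core particle, did not pass without a batch term. HNRNPA1, a splicing repressor, had 1894, 1886 and 1916 TPM with TAOK2 siRNA, against 1922, 1942 and 1908 TPM with control siRNA, and its groups overlapped (-0.02 ± 0.05, limma adjusted p = 0.802). HNRNPA2B1 had 1074, 1083 and 1110 TPM with TAOK2 siRNA, against 1200.0, 1260 and 1192 TPM with control siRNA. HNRNPC, which binds U tracts, had 719, 702 and 728 TPM with TAOK2 siRNA, against 773, 802 and 822 TPM with control siRNA. Both were lower in every knockdown library but missed the threshold (adjusted p = 0.0575 for HNRNPA2B1 and 0.0526 for HNRNPC). With batch as a block both passed, at adjusted p = 0.0408 for HNRNPA2B1 and 0.0381 for HNRNPC, which brought the count to 8, beside 27.9% of all genes in that fit.

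The size of the 4 smaller falls, relative to the error, left their calls dependent on single libraries. Leaving out 1 library at a time, 3 to 4 genes remained past the threshold. The count was 3 without control siRNA of batch A or B, or without TAOK2 siRNA of batch A or B. MATR3 and HNRNPH2 passed in all 6 such fits, with adjusted p of at most 0.000765 for MATR3 and 0.0130 for HNRNPH2. Without the trend and robust settings of limma 3 passed. With each library centred on its median gene, MATR3 and HNRNPH2 passed, beside 20.5% of all genes, and all 6 kept their negative sign. Over coding transcripts alone the HNRNPDL difference was -0.27 and did not pass (adjusted p = 0.149).

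**Figure D2:**
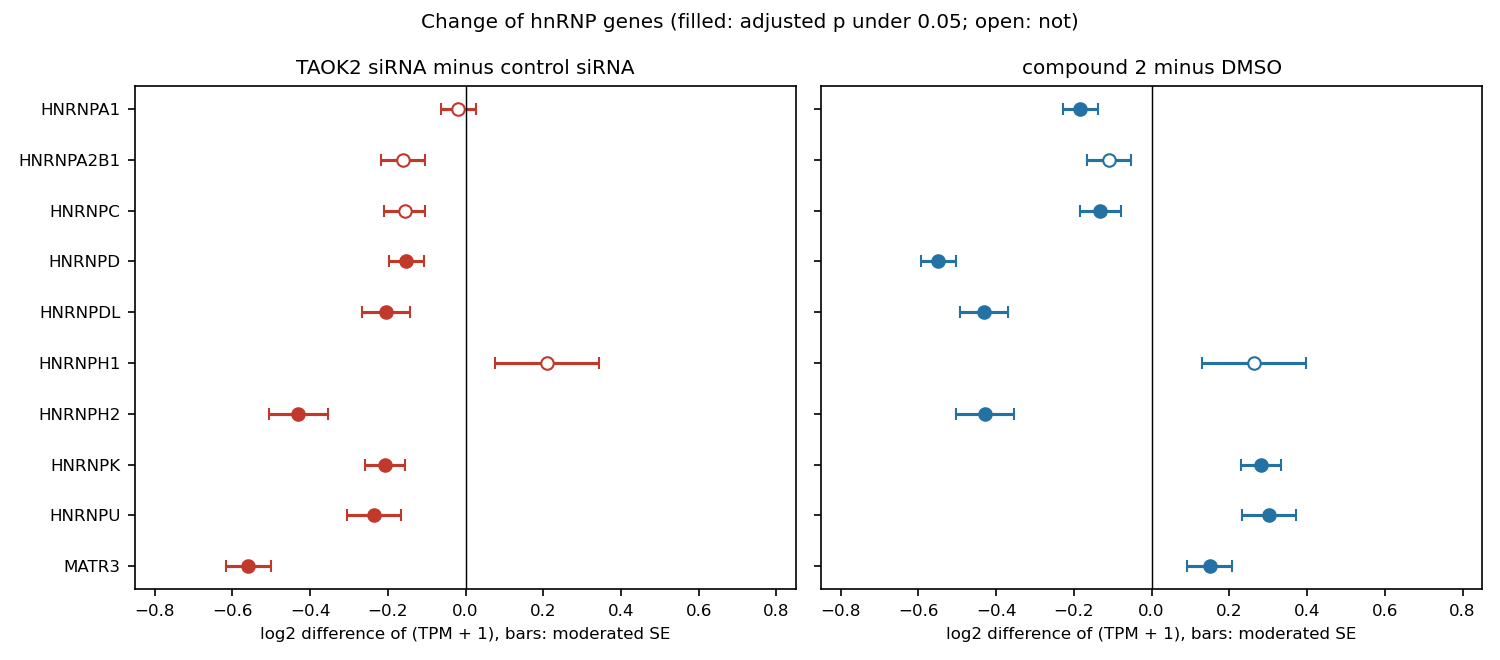
Log2 differences of (TPM + 1) with moderated standard errors (x axis) for each gene (rows), for TAOK2 siRNA minus control siRNA (left) and compound 2 minus DMSO (right), 3 libraries per group; filled points passed an adjusted p of 0.05. The 6 filled points on the left are all below 0, with MATR3 lowest at -0.56, while on the right 3 are above 0 and 5 below. Of these 5, HNRNPA1, HNRNPC, HNRNPDL and HNRNPH2 turn positive when libraries are centred on their median gene. On that scale the median over all genes is also above 0, at 0.20.

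Compound 2 was accompanied by changes in both directions. HNRNPK, HNRNPU and MATR3 rose on all scales, and HNRNPD, HNRNPDL, HNRNPH2, HNRNPA1 and HNRNPC fell in TPM, of which the last 4 changed sign when each library was centred on its median gene. These are 8 of 10 genes called in TPM; over all genes tested 63.7% passed, 51.8% lower and 12% higher. TPM directions are relative to the total of each library. The median log2 difference over all genes was -0.31 in TPM and 0.20 after each library was centred on its median gene, a shift of 0.51. On the centred scale 7 genes were higher and 0 lower, beside 67.5% of all genes called in either direction, a share not split by direction. The centred median was 0.39 over the 10 genes, above 0 as it was over all genes.

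HNRNPU had 761, 833 and 699 TPM with compound 2, against 651, 624 and 583 TPM with DMSO (log2 difference 0.30 ± 0.07, limma adjusted p = 0.00199). HNRNPK had 1141, 1097 and 1047 TPM with compound 2, against 953, 877 and 871 TPM with DMSO (0.28 ± 0.05, adjusted p = 0.00036). Neither gene overlapped between groups, and both rose on each of the 3 scales (TPM, centred and without mitochondrial mRNAs). Over coding transcripts alone HNRNPU was 0.14 higher and did not pass (adjusted p = 0.193), while HNRNPK did (0.31, adjusted p = 0.000123). MATR3 had 209, 232 and 229 TPM with compound 2, against 201.5, 211 and 190.2 TPM with DMSO. Its groups overlapped, and its difference of 0.15 ± 0.06 (adjusted p = 0.0399) lost the call in 4 of 6 fits that left out a library and where only these groups entered the fit (adjusted p = 0.110).

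HNRNPD had 248, 245 and 237 TPM with compound 2, against 365, 353 and 350.1 TPM with DMSO, the largest fall among the 10 genes in TPM (-0.55 ± 0.05, limma adjusted p = 3.80e-07). In TPM it lay 0.24 below the median log2 difference over all genes, and on the centred scale its difference was -0.04 (adjusted p = 0.566). HNRNPDL had 254, 239 and 277 TPM with compound 2, against 348, 328 and 363 TPM with DMSO (-0.43 ± 0.06, adjusted p = 5.72e-05; 0.08 on the centred scale). HNRNPH2 had 46.6, 49.6 and 41.5 TPM with compound 2, against 65.8, 62.6 and 57.8 TPM with DMSO (-0.43 ± 0.08, adjusted p = 0.000283; 0.08 on the centred scale). In these 3 genes the groups lay apart in TPM. Set against the median log2 difference over all genes in TPM, HNRNPDL was at -0.12 and HNRNPH2 at -0.11. Both were also below the median over all genes on the centred scale, which was 0.20. The coding transcripts of HNRNPDL fell much further than its gene sum (-1.20 ± 0.13, adjusted p = 4.15e-06).

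HNRNPA1 had 1750.0, 1607 and 1698 TPM with compound 2, against 1963, 1843 and 1932 TPM with DMSO (-0.18 ± 0.05, limma adjusted p = 0.00339; 0.33 on the centred scale). HNRNPC had 774, 716 and 698 TPM with compound 2, against 838, 779 and 779.6 TPM with DMSO (-0.13 ± 0.05, adjusted p = 0.0454; 0.38 on the centred scale), and lost its call in 4 of 6 fits that left out a library and without mitochondrial mRNAs (adjusted p = 0.0926). HNRNPA2B1 did not pass in TPM (1236, 1154 and 1219 TPM with compound 2, against 1355, 1198 and 1347 TPM with DMSO), and on the centred scale it passed as higher (0.40, adjusted p = 0.000897). HNRNPH1 was uneven, with 581, 669 and 447 TPM with compound 2, against 507, 469 and 422 TPM with DMSO. It was higher in compound 2 in each batch, and its difference of 0.26 in TPM passed in limma with batch as a block (adjusted p = 0.105 without and 0.0164 with the block). The share of all genes called in that block fit is not given. On the centred scale it passed without the block (0.77, adjusted p = 6.09e-05).

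The effects of knockdown and of compound 2 were set against each other in one model. MATR3 (-0.71 ± 0.08, limma adjusted p = 1.89e-05), HNRNPU (-0.54 ± 0.10, adjusted p = 0.000546) and HNRNPK (-0.49 ± 0.07, adjusted p = 0.000114) differed towards lower values under knockdown, and kept that sign and their call on the centred scale. HNRNPD (0.40 ± 0.06, adjusted p = 0.000206), HNRNPDL (0.23 ± 0.09, adjusted p = 0.0448) and HNRNPA1 (0.16 ± 0.06, adjusted p = 0.0457) differed towards higher values in TPM, and turned negative on the centred scale (-0.07, -0.24 and -0.30). Of all genes, 54.7% passed this test, 42.4% higher and 12.3% lower. On the centred scale 0 of the 10 genes were higher and 8 lower, beside 56.8% of all genes called in either direction, a share not split by direction. The centred median was -0.50 over the 10 genes and -0.16 over all genes. HNRNPA1 was called lower there (adjusted p = 0.0281), and HNRNPA2B1, HNRNPC, HNRNPH1 and HNRNPH2 were added as lower. HNRNPA1 lost its call in 10 of 12 fits that left out a library and HNRNPDL in 9 of 12; both also lost it without mitochondrial mRNAs (adjusted p = 0.0631 and 0.0536). For HNRNPH2 the difference between the effects was 0.00 ± 0.11 in TPM and -0.47 on the centred scale (adjusted p = 0.000696). Between the controls, control siRNA minus DMSO, 0 of the 10 genes passed in limma beside 6.43% of all genes, with 4 of 10 at an unadjusted p under 0.05 with and without the trend and robust settings. HNRNPD was 0.14 lower with control siRNA than with DMSO and passed in limma with batch as a block (adjusted p = 0.0426, share of all genes not given for that fit). HNRNPU passed on the centred scale (-0.25, limma adjusted p = 0.0432, beside 5.91% of all genes).

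Isoform shares of several hnRNP genes changed with compound 2. With compound 2 the NMD share rose in HNRNPDL, HNRNPD and HNRNPH1, 3 of the 7 genes tested, beside 27.3% of 3361 genes. The retained-intron share rose in HNRNPU and HNRNPD and fell in HNRNPC, 3 of 8 genes tested, beside 46.9% of 4906 genes. These 6 calls passed in every fit that left out 1 library. Under knockdown, 0 of 7 genes passed for the NMD share in limma (0 at an unadjusted p under 0.05, beside 0% of all genes). For the retained-intron share under knockdown, 0 of 8 passed (3 at an unadjusted p under 0.05, beside 0.469% of all genes). Whether the share changes differ between compound 2 and knockdown was not tested.

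HNRNPDL (chr4:82422564-82430408, minus strand) showed the largest change. Its NMD share was 47.0%, 57.6% and 42.2% of the gene with compound 2, against 11.9%, 16.5% and 11.1% with DMSO. The groups were far apart, with a log2 odds difference of 2.67 ± 0.24 (limma adjusted p = 8.71e-06). Its main NMD and coding transcripts are told apart by 1 exon of 105 bases after the stop codon, at chr4:82425563-82425667 in the 3′ UTR. NMD transcript HNRNPDL-202, which has this exon, stood at 114, 131 and 109.5 TPM with compound 2, against 14.7, 27.6 and 10.2 TPM with DMSO (log2 odds difference 4.10 ± 1.11, adjusted p = 0.0143). Coding transcript HNRNPDL-206, which skips it, stood at 113, 75.0 and 139 TPM with compound 2, against 265, 229.9 and 289 TPM with DMSO (-2.09 ± 0.26, adjusted p = 8.74e-05).

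Counted over all HNRNPDL transcripts that splice across this exon, those with it made up 48.5%, 60.7% and 43.0% with compound 2, against 12.2%, 17.3% and 10.7% with DMSO. With TAOK2 siRNA in whole cells they made up 15.6%, 16.7% and 18.1%, against 11.5%, 11.7% and 15.1% with control siRNA. That small shift went the other way in the fractionation experiment. There, total RNA held 12.3% and 12% with TAOK2 siRNA, against 22.7% and 22.3% with control siRNA. Nuclear RNA held 18.8% and 17.2% with TAOK2 siRNA, against 27.5% and 32.3% with control siRNA, and cytoplasmic RNA held 13.6% and 10.4%, against 23.9% and 23.6%. In each fraction the siRNA groups lay apart, but the share of other exons that lie apart was not counted. These exon shares were not tested on their own; the NMD share of HNRNPDL under knockdown did not pass in whole cells (0.43 ± 0.24, limma adjusted p = 0.695), in total RNA (-0.89 ± 0.43, adjusted p = 1.00), in nuclear RNA (-0.44 ± 0.43, adjusted p = 1.00) or in cytoplasmic RNA (-1.17 ± 0.43, adjusted p = 0.915).

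HNRNPD (chr4:82352498-82374503, minus strand), the neighbouring paralog, has an exon in the matching place. Its NMD share was 5.65%, 7.49% and 5.95% with compound 2, against 2.57%, 1.78% and 1.58% with DMSO (log2 odds difference 1.72 ± 0.29, limma adjusted p = 0.00102). NMD transcript HNRNPD-211, which carries a 107-base exon after the stop codon (chr4:82354895-82355001), stood at 9.59, 13.2 and 9.75 TPM with compound 2, against 0.842, 0.938 and 0.553 TPM with DMSO (3.76 ± 0.24, adjusted p = 7.56e-07). With TAOK2 siRNA it stood at 1.23, 1.35 and 1.84 TPM, against 0.621, 1.33 and 0.581 TPM with control siRNA, which overlapped. The 3′ UTR exons of both genes were aligned base by base: 74 of 109 aligned columns were identical (67.9%). The retained-intron share of HNRNPD, from 1 transcript, was 0.960%, 1.72% and 0.853% with compound 2, against 0.540%, 0.549% and 0.382% with DMSO (1.10 ± 0.23, limma adjusted p = 0.00146). These shares are small, and the gene sum they are taken from fell (248, 245 and 237 TPM, against 365, 353 and 350.1 TPM).

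HNRNPD also has 2 exons within its coding sequence whose inclusion gives the protein forms p37, p40, p42 and p45. They are printed because their use can be followed in all groups. Both come from GENCODE 29 transcript HNRNPD-201 on GRCh38, minus strand, the first at chr4:82371528-82371584 and the second at chr4:82356537-82356683.
HNRNPD 57-base exon: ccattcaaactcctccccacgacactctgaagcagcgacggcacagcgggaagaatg
HNRNPD 147-base exon: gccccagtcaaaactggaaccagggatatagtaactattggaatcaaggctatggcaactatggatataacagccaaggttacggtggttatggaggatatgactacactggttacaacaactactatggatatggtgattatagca
Transcripts with the 57-base exon made up 76.3%, 76.8% and 78.3% with TAOK2 siRNA, against 73.4%, 72.1% and 74.3% with control siRNA. With compound 2 they made up 76.1%, 76.2% and 76.6%, against 72.4%, 74.2% and 74.2% with DMSO. Those with the 147-base exon made up 25.4%, 26.2% and 25.4% with TAOK2 siRNA, against 28.0%, 30.4% and 29.2% with control siRNA. With compound 2 the 147-base exon was in 27.2%, 26.7% and 26.4%, against 30.3%, 29.4% and 27.9% with DMSO. In all 4 pairs the groups lay apart, by a few percentage points. These exon shares were not tested, and the share of other exons that lie apart was not counted. No HNRNPD transcript passed under knockdown in whole cells.

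HNRNPH1 (chr5:179614178-179634784, minus strand) had an NMD share of 12.8%, 13.6% and 15.0% with compound 2, against 7.18%, 8.70% and 8.12% with DMSO (log2 odds difference 0.88 ± 0.17, limma adjusted p = 0.00227). Transcript HNRNPH1-211, with a 134-base exon at chr5:179621843-179621976 that ends the reading frame, stood at 53.2, 62.6 and 42.7 TPM with compound 2, against 17.3, 18.0 and 11.7 TPM with DMSO (1.56 ± 0.20, adjusted p = 0.000116). A second exon of HNRNPH1, of 139 bases and within the coding sequence, stood lower with compound 2. The start of the first exon (chr5:179621951-179621976) and the whole of the second (chr5:179619269-179619407) are printed from GENCODE 29 transcripts HNRNPH1-211 and HNRNPH1-204 on GRCh38, minus strand; capitals mark the stop codon in the frame of HNRNPH1-211.
HNRNPH1 134-base exon, first 26 bases: cgttggtaacggaaagcgacctgTAA
HNRNPH1 139-base exon: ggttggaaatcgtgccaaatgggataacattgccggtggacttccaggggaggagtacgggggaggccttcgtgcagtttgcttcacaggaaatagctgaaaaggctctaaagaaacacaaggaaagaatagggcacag
Transcripts with the 134-base exon made up 17.1%, 18.6% and 17.4% with compound 2, against 6.11%, 7.16% and 6.70% with DMSO. With TAOK2 siRNA they made up 10.6%, 9.87% and 8.40%, against 8.36%, 7.63% and 7.35% with control siRNA, the lowest knockdown library just above the highest control. Transcripts with the 139-base exon made up 71.1%, 65.3% and 68.4% with compound 2, against 83.4%, 80.7% and 83.8% with DMSO, while the siRNA groups overlapped (78.9%, 82.4% and 82.9% with TAOK2 siRNA, against 81.9%, 82.6% and 84.8% with control siRNA). No test was made on these exon shares, and how often other exons lie apart was not counted.

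**Figure D3:**
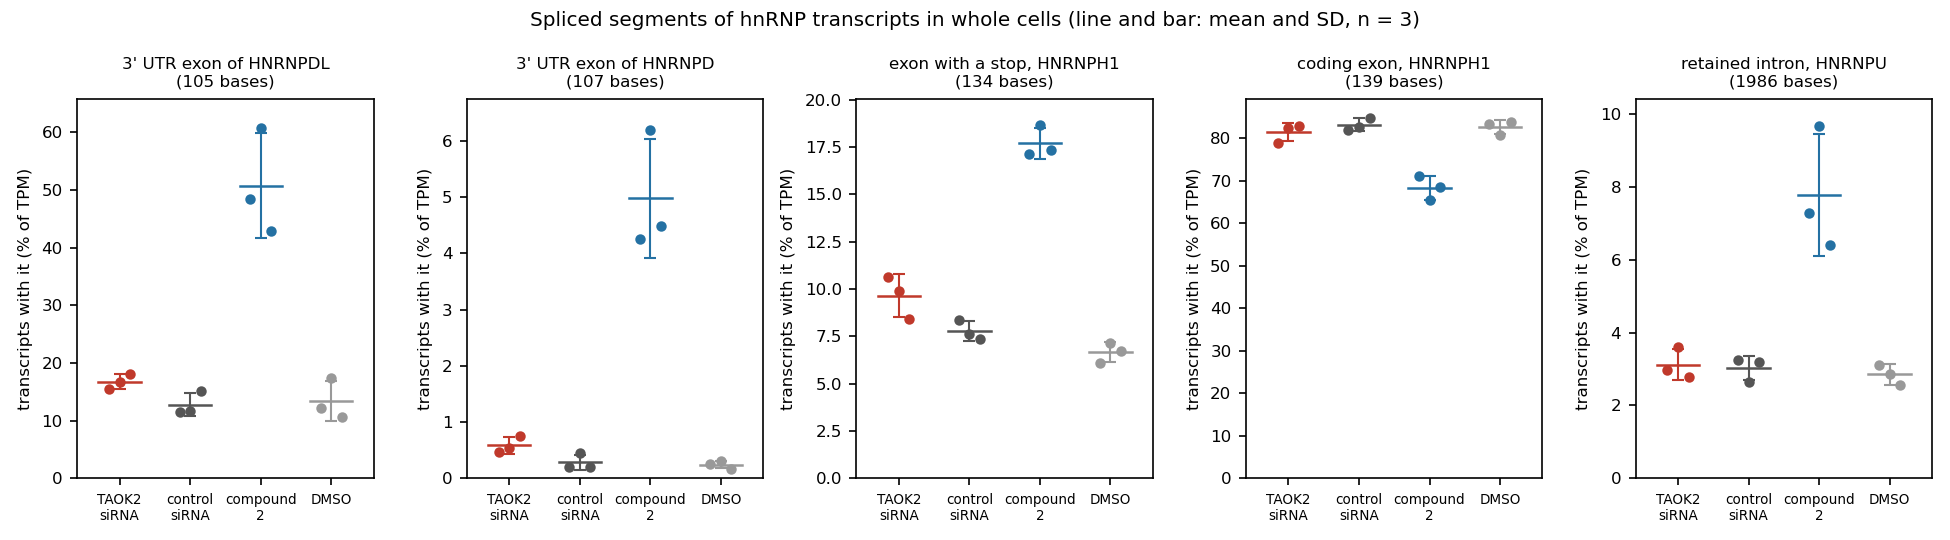
Share of transcripts (percent of TPM, y axis) that hold each of 5 segments, among those that hold or skip it, in the 4 whole-cell groups (x axis); points are libraries, lines and bars the mean and SD of 3. The 3 exons on the left and the HNRNPU intron stand highest with compound 2, at 43.0% to 60.7% for HNRNPDL, and the 139-base HNRNPH1 exon stands lowest there.

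HNRNPU (chr1:244840638-244864560, minus strand) kept an intron more often with compound 2. Its retained-intron share was 8.42%, 11.2% and 7.41% with compound 2, against 4.65%, 4.18% and 3.94% with DMSO (log2 odds difference 1.12 ± 0.19, limma adjusted p = 0.000365). Most of it was HNRNPU-217, which keeps an intron of 1986 bases (chr1:244860475-244862460) and stood at 54.6, 79.2 and 44.2 TPM with compound 2, against 20.0, 17.6 and 14.7 TPM with DMSO (1.48 ± 0.20, adjusted p = 0.000192). With TAOK2 siRNA HNRNPU-217 stood at 12.8, 15.5 and 13 TPM, against 16.7, 13.5 and 17.4 TPM with control siRNA, which overlapped. HNRNPC (chr14:21209136-21269494, minus strand) went the other way, with a retained-intron share of 0.980%, 1.05% and 1.14% with compound 2, against 2.03%, 2.61% and 1.60% with DMSO (-0.92 ± 0.20, adjusted p = 0.00165).

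Among single transcripts, 30 of 136 tested passed for compound 2, 15 with a higher and 15 with a lower share of their gene, beside 33.5% of all transcripts. They lay in HNRNPU (9), HNRNPDL (6), HNRNPH1 (6), HNRNPC (3), HNRNPD (3) and MATR3 (3), and no transcript of HNRNPA1, HNRNPA2B1 or HNRNPK passed. Under knockdown 2 of 136 passed, beside 0.0393% of all transcripts. Both were low coding transcripts of HNRNPC, named here because they were the ones that passed. HNRNPC-224 had 3.31, 3.26 and 3.43 TPM with TAOK2 siRNA and was listed at 0 or below 0.001 TPM in every other whole-cell library. HNRNPC-216 was listed below 0.01 TPM with TAOK2 siRNA, against 3.37, 3.53 and 4.52 TPM with control siRNA. These 2 transcripts mirror each other, at about the same level in the groups where they are listed. Both are a small part of HNRNPC, whose gene sum was 702 to 728 TPM with TAOK2 siRNA and 773 to 822 TPM with control siRNA. What lies behind this exchange was not tested.

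The abundant NMD transcripts moved little. HNRNPA1-205, the only NMD transcript of HNRNPA1 (chr12:54280193-54287088, plus strand), carried its NMD share of 38.8% to 43.0% across the 12 whole-cell libraries, and that share did not pass for compound 2 (log2 odds difference -0.01 ± 0.11, limma adjusted p = 0.973) or knockdown (-0.02 ± 0.11, adjusted p = 0.977). In HNRNPK (chr9:83968083-83980616, minus strand) the NMD share was 8.64% to 12.8% with compound 2, against 10.2% to 12.7% with DMSO. HNRNPA2B1 (chr7:26173057-26201529, minus strand) has a 36-base exon that makes the B1 rather than the A2 protein; it is printed from GENCODE 29 transcript HNRNPA2B1-203 (chr7:26197831-26197866, GRCh38, minus strand).
HNRNPA2B1 36-base exon: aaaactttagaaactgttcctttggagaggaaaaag
Transcripts with this exon made up 14.0%, 14.7% and 14.0% with compound 2, against 12.1%, 13% and 12.1% with DMSO. In nuclear RNA they made up 15.2% and 16.4% with TAOK2 siRNA, against 23.0% and 26.2% with control siRNA. Both pairs lay apart, neither was tested, and the share of other exons that lie apart was not counted.

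In the fractionation experiment, nuclear RNA of control cells was set against cytoplasmic RNA to show where the hnRNP transcripts lie. HNRNPH1, HNRNPU, HNRNPDL and HNRNPA2B1 were higher in nuclear RNA and HNRNPA1 was lower, 5 of 10 genes beside 48.7% of 13750 genes (29.8% higher, 18.9% lower). With batch as a block 9 passed: HNRNPH2, HNRNPK and MATR3 were added as higher and HNRNPC as lower in nuclear RNA, beside 68.2% of all genes in that fit. The scale matters here, because mitochondrial mRNAs take up much of nuclear TPM. With these mRNAs left out of the total, 8 genes were higher in nuclear RNA and 0 lower, beside 57.1% of all genes called in either direction. The median over all genes was then 0.72 rather than 0.21 higher, and that over the 10 genes 1.05. HNRNPA1 kept its sign but lost its call (-0.15, limma adjusted p = 0.548). With each library centred on its median gene 2 passed, beside 50% of all genes.

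HNRNPH1 had 2062 and 2165 TPM in nuclear RNA, against 207 and 242 TPM in cytoplasmic RNA of control cells. Its log2 difference of 3.23 ± 0.20 (limma adjusted p = 1.65e-05) passed in all 4 fits that left out a library and on every scale. It was the highest of the 10 genes in nuclear RNA, and in cytoplasmic RNA it overlapped HNRNPU and HNRNPD. HNRNPU had 367 and 400.2 TPM in nuclear RNA, against 195.5 and 242 TPM in cytoplasmic RNA (0.81 ± 0.19, adjusted p = 0.00821). HNRNPDL had 249 and 282 TPM in nuclear RNA, against 143 and 162 TPM in cytoplasmic RNA (0.80 ± 0.20, adjusted p = 0.0103).

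HNRNPA2B1 had 1242 and 1144 TPM in nuclear RNA, against 763 and 834 TPM in cytoplasmic RNA (0.58 ± 0.18, limma adjusted p = 0.0246). Over coding transcripts alone HNRNPU (0.30, adjusted p = 0.225) and HNRNPA2B1 (0.43, adjusted p = 0.0865) did not pass. HNRNPA1 had 682 and 767 TPM in nuclear RNA, against 1184 and 1186 TPM in cytoplasmic RNA (-0.71 ± 0.19, adjusted p = 0.0148). In these 5 genes the fractions did not overlap. The count was 1 without the cytoplasmic control library of batch 1, 3 without that of batch 2, and 3 or 2 without the nuclear control library of batch 1 or 2. HNRNPD did not differ beyond its error (214 and 211.5 TPM in nuclear RNA, against 217 and 211 TPM in cytoplasmic RNA).

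**Figure D4:**
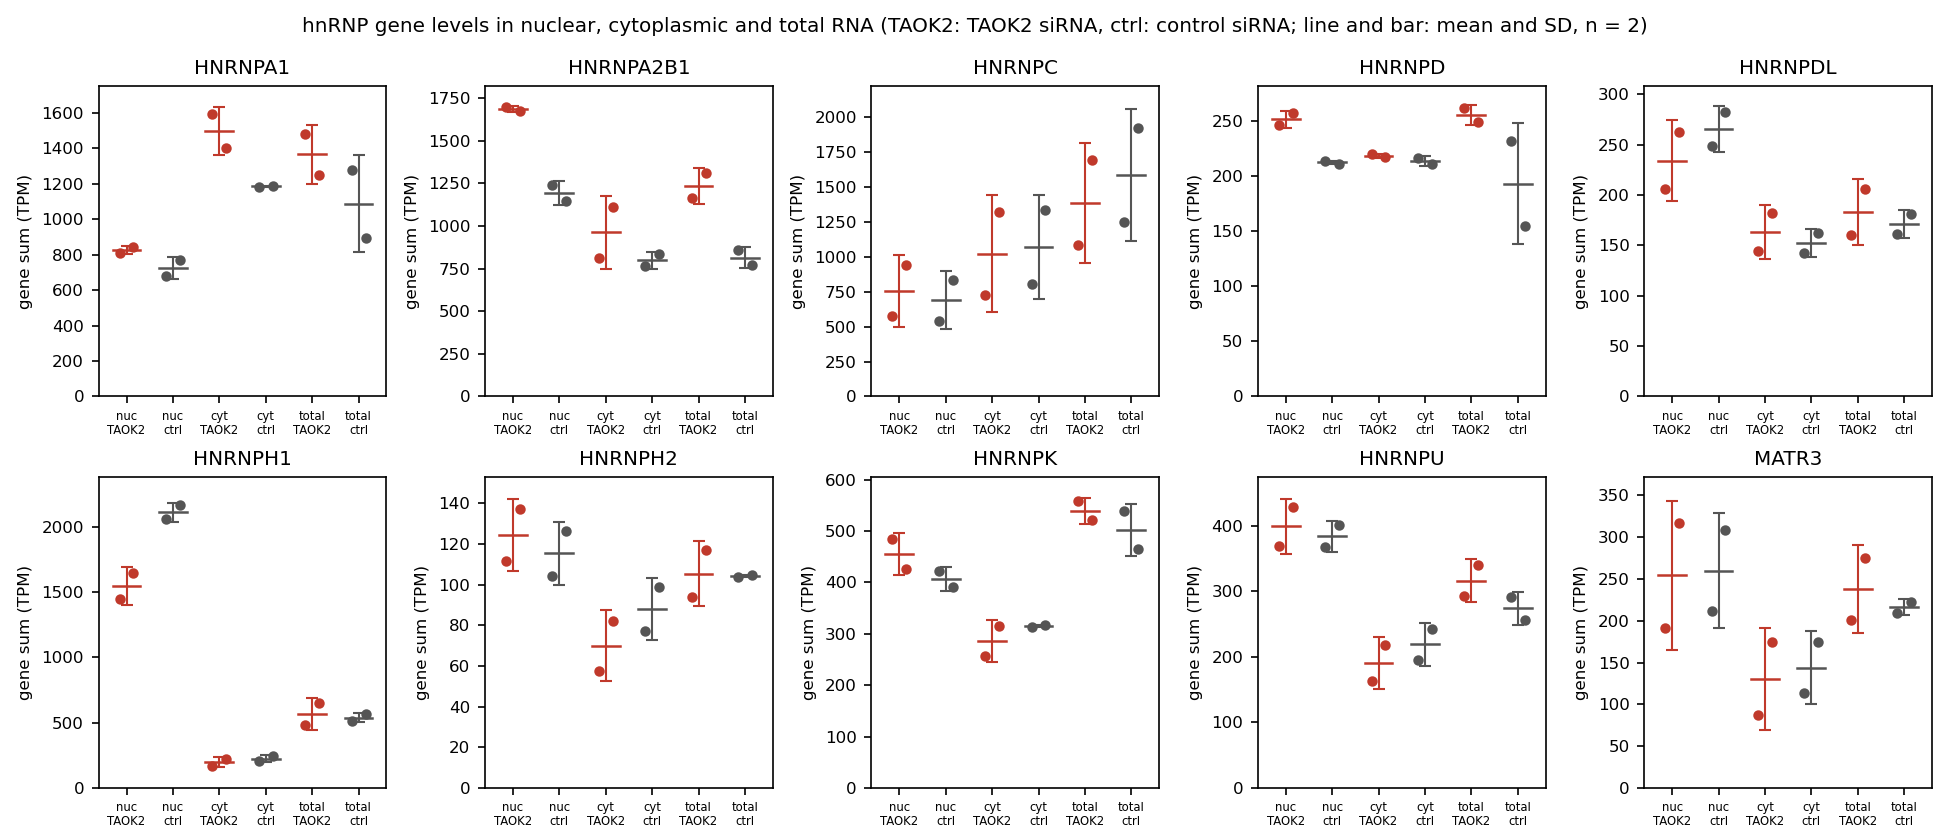
Gene sums in TPM (y axis) of the 10 genes in nuclear (nuc), cytoplasmic (cyt) and total RNA with TAOK2 siRNA or control siRNA (x axis), each point 1 library, lines and bars the mean and SD of 2. HNRNPH1 reaches 1447 to 2165 TPM in nuclear RNA and stays at 170 to 242 TPM in cytoplasmic RNA.

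The retained-intron share rose in nuclear against cytoplasmic RNA of control cells in 6 of 8 genes, close to the 71.9% of 4988 genes called in either direction, and HNRNPU and HNRNPC did not pass. Each of the 6 calls held without any 1 library. The median over the 8 genes was 4.18 on the log2 odds scale, beside 2.39 over all genes. HNRNPH1 had 66.3% and 61.4% of its TPM in retained-intron transcripts in nuclear RNA, against 6.06% and 7.00% in cytoplasmic RNA (4.62 ± 0.46, limma adjusted p = 2.10e-05). HNRNPA1 had 22.4% and 30.9%, against 0.176% and 0.530% (6.66 ± 0.91, adjusted p = 0.000143). HNRNPK had 20.3% and 16.2%, against 0.704% and 0.390% (5.02 ± 0.38, adjusted p = 5.37e-06).

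HNRNPA2B1 had 13% and 11.8% in nuclear RNA, against 0.214% and 0.167% in cytoplasmic RNA. MATR3 had 11.0% and 11.8%, against 0.806% and 0.610%, and HNRNPD had 2.70% and 3.90%, against 0.0435% and 0.0277%. All of these were far apart between fractions. HNRNPU differed less, with 26.0% and 23.4% in nuclear RNA, against 16.5% and 17.6% in cytoplasmic RNA, and did not pass. HNRNPDL has no transcript of this class, but coding transcript HNRNPDL-204, which keeps a 1153-base stretch of the 3′ UTR (chr4:82424884-82426036), stood at 118 and 204 TPM in nuclear RNA, against 1.42 and 2.07 TPM in cytoplasmic RNA (6.69 ± 0.71, adjusted p = 0.000211).

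HNRNPC was split by batch, and its nuclear minus cytoplasmic difference did not pass (0.57 ± 1.72, limma adjusted p = 0.778). Its retained-intron share was 33.0% to 48.0% in every library of batch 2, and 2.78% to 19.6% in every library of batch 1, whatever the fraction or siRNA. Transcript HNRNPC-207 carried this split, with 239 to 889.8 TPM in batch 2 and 0.515 to 181 TPM in batch 1, and it had at most 1.36 TPM in whole cells. A second transcript did the reverse: HNRNPA1-206, classed as coding, had 30.3 to 313 TPM in batch 1 and 1.19 to 6.15 TPM in batch 2. What sets these batches apart was not tested. HNRNPU transcripts differed between the experiments: HNRNPU-214 had 108 to 229.6 TPM in whole cells and 0.171 to 2.69 TPM in the fractionation experiment, where HNRNPU-228 had at most 1.17 TPM. The 2 tables are separate, so no test was made across them.

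**Figure D5:**
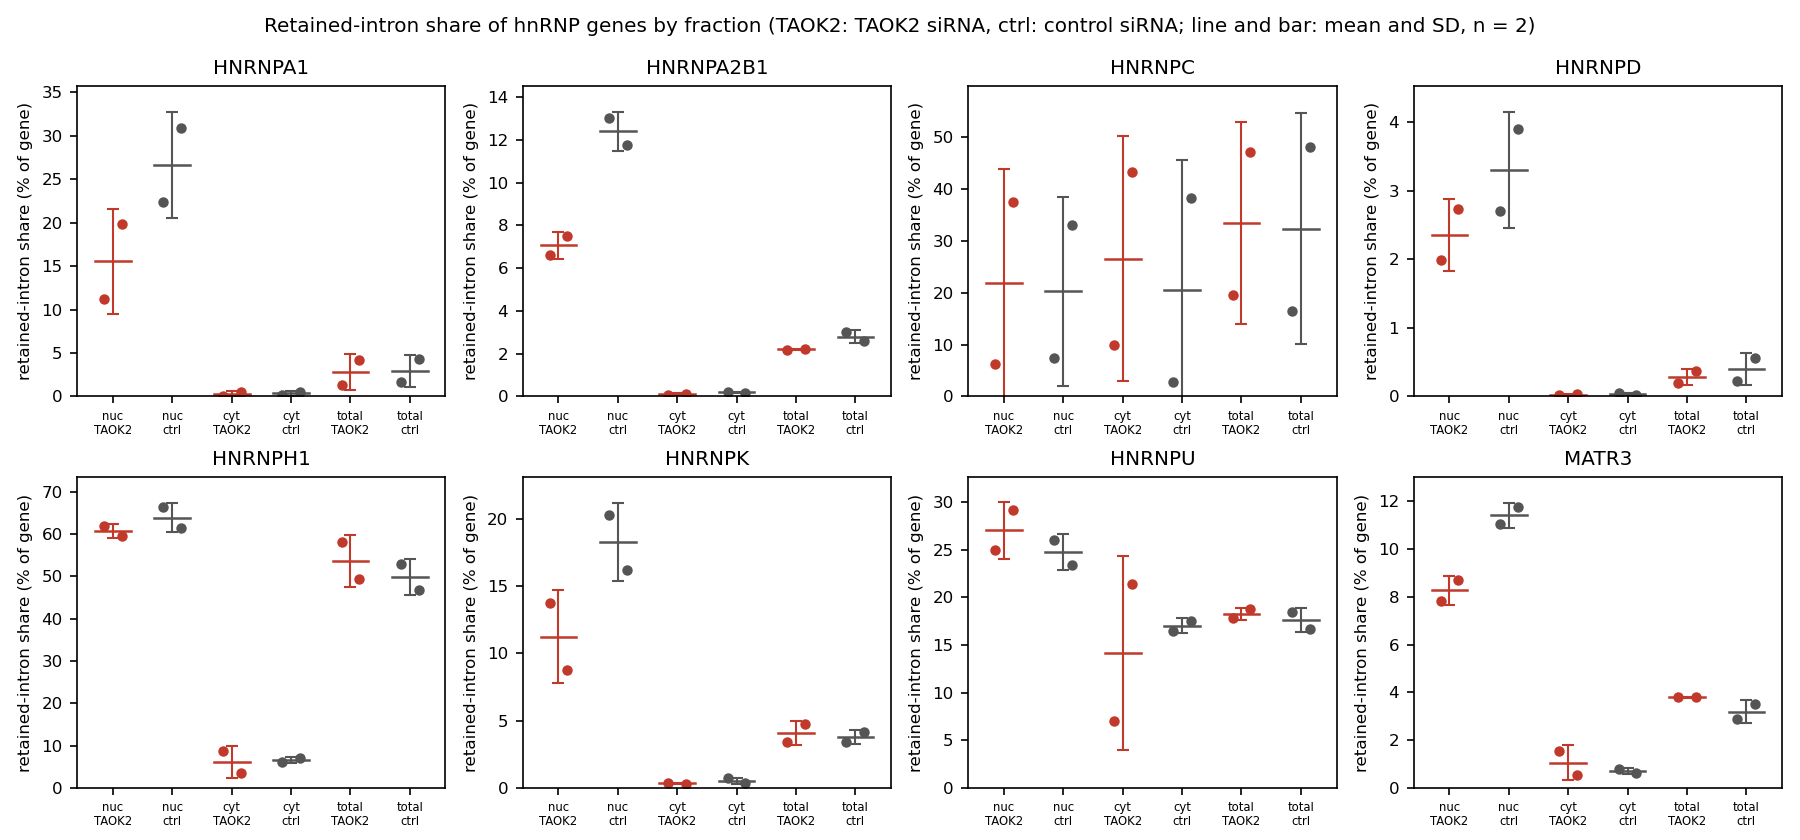
Retained-intron transcripts as a percent of the TPM of their gene (y axis) for the 8 genes that have such transcripts, by fraction and siRNA (x axis), each point 1 library, lines and bars the mean and SD of 2. In HNRNPA1, HNRNPA2B1, HNRNPD, HNRNPH1, HNRNPK and MATR3 the nuclear points stand above the cytoplasmic ones, and in HNRNPC the 2 libraries of each group are split.

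The NMD share rose in nuclear RNA for HNRNPU and fell for HNRNPA1, 2 of 8 genes beside 23.3% of 3139 genes. HNRNPA1 had an NMD share of 14.8% and 14.4% in nuclear RNA, against 34.1% and 34.8% in cytoplasmic RNA (log2 odds difference -1.61 ± 0.32, limma adjusted p = 0.00710). HNRNPU had 15.9% and 23.4% in nuclear RNA, against 6.86% and 6.12% in cytoplasmic RNA (1.75 ± 0.38, adjusted p = 0.0110). The HNRNPU call was lost without batch 2 of either fraction (adjusted p = 0.0687 and 0.0903). HNRNPDL passed as lower with batch as a block (-1.10, limma adjusted p = 0.0222), a fit for which the share of all genes is not given. NMD transcript HNRNPH1-219 stood at 93.5 and 230.1 TPM in nuclear RNA of control cells and was listed at 0 in both cytoplasmic libraries. Among single transcripts 59 of 149 passed, 38 higher and 21 lower in nuclear RNA, beside 35.3% of all transcripts.

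Knockdown of TAOK2 within the fractions gave no call among the hnRNP genes in the fit without a batch term. In limma, 0 of 10 genes passed in total RNA (2 at an unadjusted p under 0.05, and 1 without the trend and robust settings), 0 in nuclear RNA (1 and 1) and 0 in cytoplasmic RNA (0 and 0). Over all 13750 genes 0% passed in total RNA, 0.0145% in nuclear RNA and 0% in cytoplasmic RNA, so this fit called almost no gene. Groups held 2 libraries, and the fit left out batch, although deviations of same-batch libraries correlated at 0.531 to 0.837. With batch as a block, HNRNPH1 in nuclear RNA was the only call among the 10 genes in these comparisons. Its moderated standard error was 0.11 there, against 0.20 without the block. How far the small number of libraries limits the calls was not tested. The falls seen in whole cells did not recur in total RNA: MATR3 had 200.5 and 276 TPM with TAOK2 siRNA, against 209.9 and 223 TPM with control siRNA. HNRNPH2 had 94.0 and 117 TPM with TAOK2 siRNA, against 104 and 105 TPM with control siRNA. Both overlapped.

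The siRNA groups did not overlap for 3 of 10 genes in total RNA, 5 in nuclear RNA and 2 in cytoplasmic RNA. The share of all genes that lay apart in this way was not counted, so these counts cannot be read as effects of knockdown. HNRNPU stood higher with TAOK2 siRNA in total RNA (293 and 339 TPM, against 291 and 256 TPM). So did HNRNPA1, HNRNPD and HNRNPK in nuclear RNA, and HNRNPA1 and HNRNPD in cytoplasmic RNA. The others are given here. HNRNPA2B1 had 1162 and 1308 TPM in total RNA with TAOK2 siRNA, against 858 and 771 TPM with control siRNA (0.60 ± 0.18, limma adjusted p = 0.427). HNRNPD had 262 and 249 TPM in total RNA with TAOK2 siRNA, against 232 and 155 TPM with control siRNA (0.43 ± 0.18, adjusted p = 0.736). In nuclear RNA HNRNPA2B1 had 1698 and 1674 TPM with TAOK2 siRNA, against 1242 and 1144 TPM with control siRNA (0.50 ± 0.18, adjusted p = 0.380). HNRNPH1 had 1447 and 1651 TPM in nuclear RNA with TAOK2 siRNA, against 2062 and 2165 TPM with control siRNA (-0.45 ± 0.20, limma adjusted p = 0.525). It passed with batch as a block (limma adjusted p = 0.0440), a fit for which the share of all genes is not given. HNRNPA2B1 thus stood higher with TAOK2 siRNA here and lower in whole cells.

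In nuclear RNA the retained-intron share stood lower with TAOK2 siRNA in 4 of 8 genes without overlap, beside 36.8% of all 4988 genes, and no hnRNP gene passed. HNRNPA2B1 had 6.62% and 7.51% with TAOK2 siRNA, against 13% and 11.8% with control siRNA (log2 odds difference -0.90 ± 0.27, limma adjusted p = 0.999). HNRNPK had 13.7% and 8.80%, against 20.3% and 16.2% (-0.84 ± 0.38, adjusted p = 0.999). HNRNPA1 had 11.3% and 19.8%, against 22.4% and 30.9%, and MATR3 had 7.84% and 8.70%, against 11.0% and 11.8%. The median over the 8 genes was -0.49, beside -0.31 over all genes, and the retained-intron TPM of all genes also stood lower in nuclear RNA with TAOK2 siRNA (73460 and 80120 TPM, against 88600 and 97470 TPM). For the retained-intron share 0 of 8 genes passed in each fraction, beside 0%, 0% and 0.0401% of all genes in total, nuclear and cytoplasmic RNA, with 0, 1 and 1 at an unadjusted p under 0.05.

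The NMD share moved in single genes, again with 0 of 8 passing in each fraction (0% of all genes; 0, 1 and 2 at an unadjusted p under 0.05 in total, nuclear and cytoplasmic RNA). HNRNPU had an NMD share of 30.5% and 19.6% in cytoplasmic RNA with TAOK2 siRNA, against 6.86% and 6.12% with control siRNA (log2 odds difference 2.20 ± 0.38, limma adjusted p = 0.473). HNRNPA1 had 22.9% and 23.4% in nuclear RNA with TAOK2 siRNA, against 14.8% and 14.4% with control siRNA (0.81 ± 0.32, adjusted p = 1.00). In both the siRNA groups lay apart, and in total RNA they were close for HNRNPU (21.2% and 22.0% with TAOK2 siRNA, against 20.2% and 20.8% with control siRNA). The effect of knockdown on the difference between nuclear and cytoplasmic RNA passed at the gene level for 0 of 10 genes in limma (0 at an unadjusted p under 0.05), beside 0% of all genes. For the NMD share and the retained-intron share it passed for 0 of 8 genes each, beside 0% of all genes, with 1 and 0 at an unadjusted p under 0.05. That 1 was the NMD share of HNRNPU (-2.17 ± 0.54, limma adjusted p = 1.00).

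Beyond the 10 genes, a list of 24 other hnRNP and related genes was read in the same fits; of those called, up to 2 with small adjusted p in each direction are named, and SFPQ under knockdown as the only other call. Under knockdown in whole cells 0 rose and 3 fell, beside the 22.2% of all genes called: HNRNPUL2 (-0.50 ± 0.09, limma adjusted p = 0.00228), HNRNPR (-0.26 ± 0.06, adjusted p = 0.0122) and SFPQ (-0.18 ± 0.06, adjusted p = 0.04995). On the centred scale, applied to this list after seeing the data, SFPQ lost its call (-0.14, adjusted p = 0.0970). With compound 2, 7 rose and 8 fell in TPM, while on the centred scale 18 were higher and 0 lower. Of all genes, 63.7% and 67.5% were called in either direction on these scales. The centred median was 0.58 over this list and 0.20 over all genes. SFPQ, a paraspeckle protein (0.62 ± 0.06, adjusted p = 2.12e-06), and HNRNPAB (0.46 ± 0.07, adjusted p = 7.99e-05) had the smallest adjusted p among those that rose, and both were also higher on the centred scale. HNRNPUL1 (-0.60 ± 0.05, adjusted p = 4.07e-07) and HNRNPL (-0.61 ± 0.08, adjusted p = 1.90e-05) had the smallest among those that fell in TPM, and neither passed on the centred scale (-0.09 and -0.10). In nuclear against cytoplasmic RNA, where 48.7% of all genes were called, 7 were higher, among them PTBP2 (2.60 ± 0.31, adjusted p = 0.000244), and 3 were lower, led by HNRNPAB (-0.56 ± 0.14, adjusted p = 0.00967) and PTBP3 (-0.99 ± 0.29, adjusted p = 0.0206). On the centred scale 5 were higher and 6 lower. Knockdown within the fractions gave 0 calls in this list.

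Over the 12 whole-cell libraries, which share 4 groups and 3 batches, the single gene most like each member in log2(TPM + 1) was found by Pearson r. For HNRNPD it was FAM192A (r = 0.990), for HNRNPH2 TM2D2 (0.988), for HNRNPK MTA2 (0.987), for HNRNPU CNBP (0.987), for MATR3 IPO11 (0.979) and for HNRNPA1 SMIM14 (0.976). HNRNPDL was most like MCM8 (0.974), HNRNPA2B1 TUBG1 (0.937), HNRNPC BRD7 (0.920) and HNRNPH1 ELL2 (0.919). None of these partners is another of the 10 genes. Within the set r ran between 0.980 for HNRNPK and HNRNPU and -0.74 for HNRNPA1 and HNRNPU, and was 0.899 for HNRNPD and HNRNPDL.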

How the data were processed

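The authors deposited transcript TPM for 188753 transcripts in each of 2 tables. The submitters' processing notes name kallisto, whose version was not given in the sources used here, and the build GRCh38.p14. Of the transcripts, 169797 (89.96%, with 97.0% to 98.3% of each library's TPM) matched an identifier in GENCODE 29, whose transcript classes, coordinates and sequences (GRCh38) were used. TPM was summed per gene and per class; MATR3 has 2 gene identifiers in GENCODE 29 and was summed by name. TPM keeps no read depth, so no counting interval is given.

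Gene tests used limma 3.58.1 with statmod 1.5.0 and R 4.3.3 on log2(TPM + 1), for genes averaging 1 TPM or more in a table, with group means over all 12 libraries, trend and robust settings and Benjamini-Hochberg adjustment at 0.05 per comparison over all features. A fold change on this scale understates the change of low genes. Shares were tested as log2 odds with 0.5 TPM added, in genes of at least 5 TPM and classes or transcripts of at least 0.5 TPM. Errors of differences are moderated standard errors. The fits were tested on simulated data. Sequences were aligned with biopython 1.88 in Python 3.11.15.

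Libraries were grouped and paired by the batch in their labels. Deviations from group means correlated between libraries of the same batch at 0.531 to 0.837 in the fractionation experiment (30 of 30 pairs over 0.1) and at -0.302 to 0.639 in whole cells (12 of 18). In the fractionation experiment, with 2 libraries per group, deviations in batch 2 mirror those in batch 1, so the pairs of batch 2 repeat those of batch 1. No libraries were identical. The members, lists, exons and tests were chosen with earlier results of these data known. Named transcripts are those with at least 10% of their gene in a group and the highest NMD and retained-intron transcript of each gene, plus those named as chosen after their values were seen. The alternatives were pseudocount, filters, scaling, batch block, moderation, groups in the fit, gene sums and left-out libraries. Of the other hnRNP genes called, the 2 with the smallest adjusted p in each direction are named; 1 result that this rule names is not reported here.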

Additional observations from a re-analysis of the deposited data

How the results depend on the processing

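For the calls of genes, at the gene level and for the NMD and retained-intron shares, 454 values under an alternative kept direction and call. A further 89 kept the direction but lost the call, and 7 reversed. Calls of single transcripts are not part of this tally. All 7 reversals came from centring each library on its median gene: HNRNPA1 (0.33), HNRNPC (0.38), HNRNPDL (0.077) and HNRNPH2 (0.08) for compound 2, and HNRNPA1 (-0.30), HNRNPD (-0.067) and HNRNPDL (-0.24) for knockdown minus compound 2. The median over all genes changed sign too, from -0.31 to 0.20 for compound 2 and from 0.30 to -0.16 for knockdown minus compound 2. Under centring 7 genes were higher and 0 lower in place of 3 and 5 for compound 2, and 0 higher and 8 lower in place of 3 and 3 for knockdown minus compound 2. Under centring the count was also 2 in place of 6 for knockdown in whole cells, 1 in place of 0 for control siRNA minus DMSO, and 2 in place of 5 for nuclear minus cytoplasmic RNA. Without the trend and robust settings knockdown in whole cells gave 3, and with genes of at least 10 TPM knockdown gave 1 called transcript in place of 2. With batch as a block, the pairing of the labels, the counts were 9 for nuclear minus cytoplasmic RNA, 1 for knockdown in nuclear RNA and 1 for control siRNA minus DMSO. The share of all genes called under the block is given for nuclear minus cytoplasmic RNA (68.2%) and knockdown in whole cells (27.9%) at the gene level. It is not given for the other block fits, so their calls cannot be set against a background. Without mitochondrial mRNAs, an alternative chosen after seeing the data, nuclear minus cytoplasmic RNA gave 8. Leaving out 1 library gave 3 to 4 genes for knockdown in whole cells, 6 to 9 for compound 2, 1 to 3 for nuclear minus cytoplasmic RNA at the gene level and 1 to 2 for its NMD share; where a group was left with 1 library, that library was assumed to vary like the other groups. The cause of these shifts was not tested. The counts for shares with compound 2 and for retained-intron shares between fractions stayed at 3, 3 and 6 without any 1 library. With 2 libraries per group, the fractionation experiment limits what knockdown can show there.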
